A study of Homo sapiens with 27 samples.

Results

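Genes of the integrated stress response and the unfolded protein response were followed in A375 melanoma cells with and without the chromatin factor TADA2B, at rest and under inhibitors of the MAPK pathway. The 45 genes were taken from a list of ATF4 target, amino acid supply and endoplasmic reticulum (ER) chaperone genes, and each was found by its Ensembl identifier through GENCODE release 29. They are 45 of the 58721 genes of the count table, and all 45 were among the 25199 genes with enough counts to test. By role they were 7 transcription factors and regulators, 3 other stress effectors, 9 enzymes of amino acid and one-carbon metabolism, 7 amino acid transporters, 4 sensor genes of the unfolded protein response including XBP1, 12 ER chaperones and folding enzymes, and 3 genes of ER-associated degradation.

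ATF4 is the transcription factor at the end of the integrated stress response. Kinases that sense amino acid shortage, ER stress or other insults phosphorylate the initiation factor eIF2alpha, general translation falls, and the ATF4 mRNA is translated more because of short reading frames in its leader, so that its mRNA level need not follow its activity. ATF4 then raises genes for amino acid uptake and synthesis and, with DDIT3 (CHOP), genes tied to cell death and to the return of translation. The unfolded protein response begins at the ER membrane with the sensors PERK (EIF2AK3), IRE1 (ERN1) and ATF6. IRE1 splices the XBP1 mRNA, a step that counts per gene do not show, and the spliced XBP1 protein and cleaved ATF6 raise chaperones and the machinery of ER-associated degradation. In melanoma these pathways are studied for their part in tolerance to BRAF and MEK inhibitors.

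A375 is a BRAF-mutant human melanoma cell line. Trametinib inhibits the kinase MEK, vemurafenib inhibits mutant BRAF, and TADA2B is an adaptor subunit of the SAGA co-activator complex, which acetylates histones. The 9 groups of 3 libraries were TADA2B knockout cells made with guide 1, TADA2B knockout cells made with guide 2, and control cells carrying a guide against GFP, a gene that human cells lack, each treated for 24 h with 20 nM trametinib, 1 µM vemurafenib or DMSO, the solvent. PolyA RNA was sequenced with a stranded kit. The labels do not say whether a knockout population was a pool or a clone, and are silent on whether the 3 libraries of a group stem from separate cultures. Each p-value therefore measures library-to-library spread, possibly of technical origin.

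The 27 libraries held 67502300 to 92513726 counts. The TADA2B transcript itself was kept, so the table does not show the knockout at rest: in DMSO it stood at 29.6 to 31.1 CPM with guide 1 and 27.3 to 29.6 CPM with guide 2, against 30.2 to 32.1 CPM in control cells. Under trametinib it stood at 34.2 to 35.7 and 28.8 to 29.8 CPM in the guide 1 and guide 2 cells, against 40.5 to 42.8 CPM in control cells. CPM are counts scaled to library size, with the sizes adjusted by TMM. DUSP6, a feedback target of the MAPK pathway, was at 0.952 to 1.13 CPM in control cells under trametinib and 13.3 to 14.6 CPM under vemurafenib, against 144 to 149.5 CPM in DMSO, which is the direction that the labels give. The melanoma markers SOX10, MITF and S100B were detected in all 27 libraries, PMEL and MLANA did not exceed 2.23 TPM, a scale that corrects for gene length, TYR was at 0 in 9 libraries, and DCT ranged between 0.0604 and 533 TPM. Of 15 markers of other cell types, KRT1 was at 0 in all 27 libraries, but the keratins KRT10 and KRT14 were at 45.1 to 64.2 and 5.07 to 24.2 TPM. The 4 leukocyte markers stayed at or under 1.17 TPM, and the fibroblast markers PDGFRB and LUM reached 28.6 and 40.6 TPM. The share of counts on mitochondrial genes was 3.13% to 3.6% in knockout cells and 2.05% to 2.38% in control cells under the drugs, and 2.33% to 2.74% in knockout cells and 1.58% to 1.68% in control cells in DMSO. It moved with the drug and with the knockout, as many of the genes below did, and its part in their changes was not tested.

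In control cells in DMSO, the most abundant of the 45 genes per length was CALR, the lectin chaperone calreticulin, at 1569 ± 23.6 TPM (SD, n = 3 here and in all means below). It was followed by HSP90B1 (GRP94) at 1066 ± 4.94 TPM, HSPA5 (BiP), the master chaperone of the ER lumen, at 650.0 ± 3.50 TPM and CANX (calnexin) at 569.7 ± 7.72 TPM, and the libraries of these 4 genes did not overlap. The light chain of the large neutral amino acid transporter, SLC7A5, had the next highest mean at 288 ± 9.41 TPM, and ATF4 the 8th at 261 ± 3.63 TPM. The libraries of SLC7A5 overlapped those of PDIA4, and those of ATF4 overlapped those of SLC38A2, so neither rank is firm. Over the whole order, 19 of the 44 pairs of neighbours had libraries that overlapped, so about those ranks nothing can be said. The lowest were ASNS, asparagine synthetase, at 0.624 ± 0.160 TPM and NUPR1, a small stress-induced chromatin protein, at 0.519 ± 0.0685 TPM. NUPR1 was also the gene with the widest range, at 20.3 TPM in guide 2 cells under trametinib, 39.1 times its level in control cells in DMSO. The ASNS value is uncertain: 79.7% of its exon bases are shared, on the same strand, with the annotated transcript AC079781.5, and ASNS received only 1140 counts over the 27 libraries, so reads on the shared part may not have been assigned to it.

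**Figure D1:**
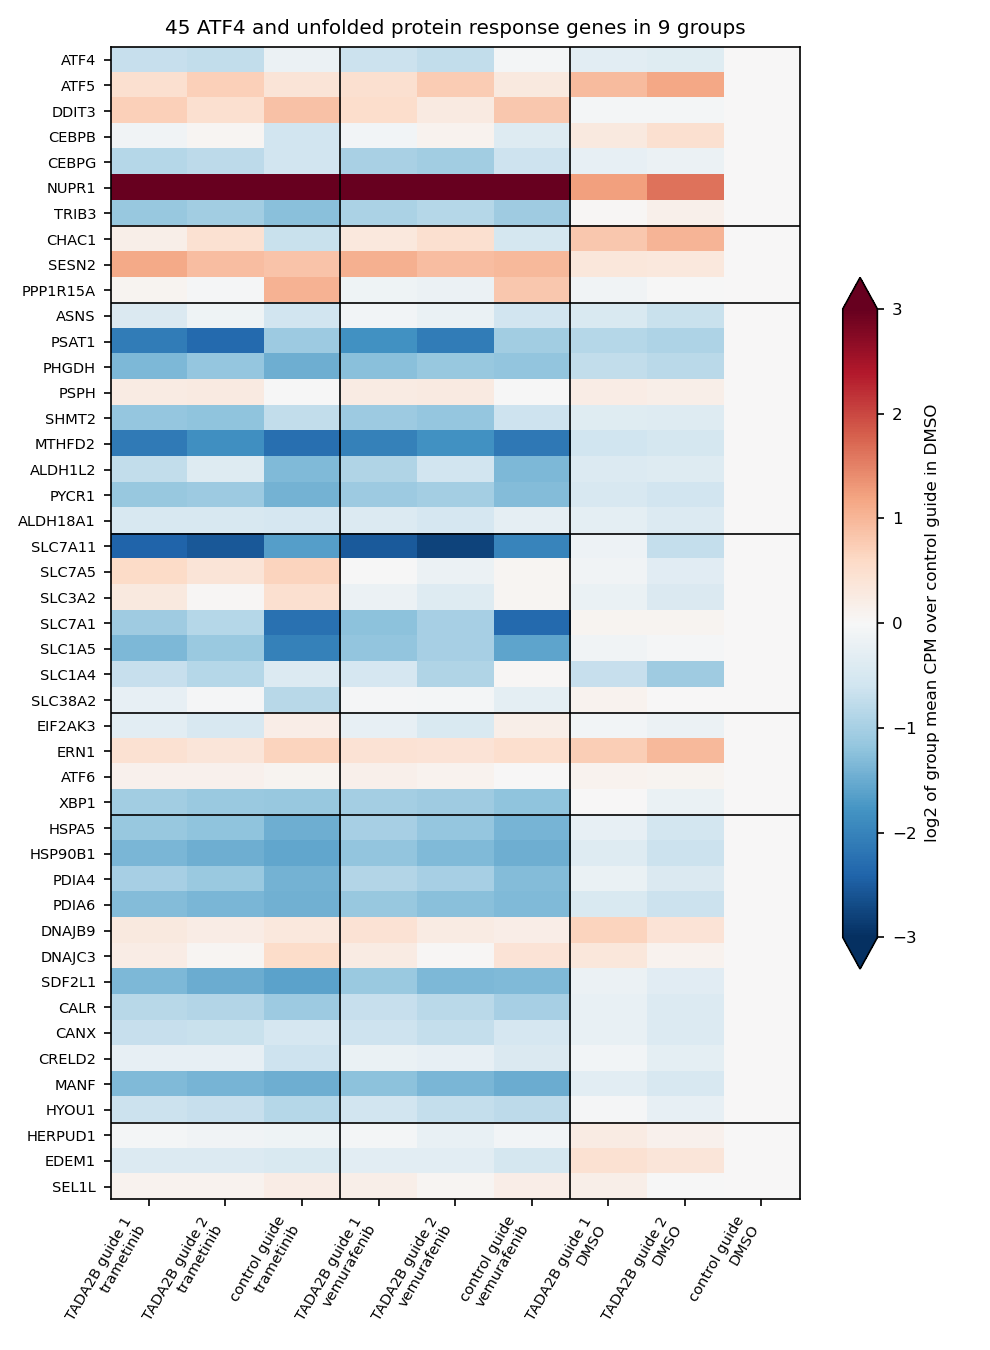
Heat map of the 45 genes (rows, by role, separated by lines) in the 9 groups (columns). Colour is the log2 of the group's mean CPM over that of control cells in DMSO, with red above and blue below, and the scale ends at 3 in either direction. NUPR1 is the darkest red under either drug, past the end of the scale, most metabolic enzymes and most chaperones are blue in all drug-treated groups, and the blue of SLC7A1 is darker in the drug-treated control cells than in the drug-treated knockout cells.

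In control cells both drugs split the list. NUPR1, DDIT3, PPP1R15A and SESN2 rose, while 7 of 9 amino acid and one-carbon enzymes and 10 of 12 ER chaperones fell. Under trametinib 13 members were called higher and 30 lower, at an adjusted p under 0.05 in edgeR's quasi-likelihood test with Benjamini-Hochberg adjustment over all genes tested, a rule by which 69.0% of all genes were called, 36.4% higher and 32.5% lower. With trametinib, 2 members were higher and 17 lower by at least 2-fold, and 17.1% and 12.4% of all genes were; the counts at 1.5-fold were 6 and 22, beside 24.4% and 19.7%. Under vemurafenib 10 were called higher and 28 lower, where 67.3% of all genes were called, 35.7% higher and 31.6% lower. With vemurafenib, 1 member was higher and 17 lower by at least 2-fold, and 16.1% and 11.3% of all genes were; the counts at 1.5-fold were 4 and 20, beside 23.5% and 18.6%. With so many genes called, sizes tell more than counts. The median log2 fold change of the members was -0.58 under trametinib, against 0.06 over all genes tested, and -0.53 under vemurafenib, against 0.06. Together the 45 genes took 0.634% ± 0.00283 of all counts under trametinib and 0.619% ± 0.00321 under vemurafenib, against 0.922% ± 0.0029 in DMSO, and the 19 ER genes took 0.355% and 0.357%, against 0.604%. Since the libraries are bulk, RNA from fewer cells and less RNA per cell cannot be told apart, and each change is relative to the bulk of genes in a library.

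Of the transcription factors, ATF4 mRNA changed little. It had 254, 247 and 261 CPM in trametinib-treated and 282, 278 and 272 CPM in vemurafenib-treated control cells, against 279.5, 286 and 298 CPM in DMSO. Its log2 fold change was -0.18 ± 0.03 (SE) with trametinib (edgeR adjusted p = 2.2e-06) and -0.06 ± 0.03 with vemurafenib (edgeR adjusted p = 0.12), where DESeq2 gave -0.07 and a call (adjusted p = 0.0445). The copies ATF4P3 and ATF4P4 held counts equal to 2.85% and 2.31% of those on ATF4, so a small part of its reads may have been placed there. NUPR1, an ATF4 target, moved most of all members. It had 11.7, 12.8 and 11.9 CPM under trametinib and 11.1, 11.2 and 10.9 CPM under vemurafenib, against 1.08, 1.43 and 1.28 CPM in DMSO, with no overlap. Its log2 fold changes were 3.26 ± 0.08 (edgeR adjusted p = 8e-35) and 3.13 ± 0.09 (edgeR adjusted p = 8.2e-34). DDIT3, the pro-apoptotic factor CHOP, had 12.0, 12.4 and 12.8 CPM under trametinib and 12.1, 11.9 and 11.6 CPM under vemurafenib, against 6.59, 6.96 and 6.67 CPM in DMSO. All 6 drug-treated libraries lay above the DMSO libraries, with log2 fold changes of 0.88 ± 0.07 (edgeR adjusted p = 1.1e-15) and 0.81 ± 0.07 (edgeR adjusted p = 1.9e-14). ATF5, another factor of the same response, rose by 0.39 and 0.28 on the log2 scale. TRIB3, a pseudokinase that ATF4 and DDIT3 induce and that feeds back on them, went the other way, with log2 fold changes of -1.24 ± 0.05 with trametinib (edgeR adjusted p = 4.5e-28) and -1.08 ± 0.05 with vemurafenib. The C/EBP factors CEBPB and CEBPG, partners of ATF4, fell as well.

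The other stress effectors were divided in the same way. PPP1R15A (GADD34), the regulatory subunit that brings phosphatase to eIF2alpha and so restores translation, had 103, 104 and 103 CPM under trametinib and 87.2, 88.6 and 85.1 CPM under vemurafenib, against 50.4, 49.0 and 50.4 CPM in DMSO. All 6 drug-treated libraries lay above the DMSO libraries, by 1.04 ± 0.04 (edgeR adjusted p = 4.5e-29) and 0.80 ± 0.04 (edgeR adjusted p = 2.7e-24) on the log2 scale. SESN2, a leucine-binding inhibitor of mTORC1, rose by 0.85 ± 0.05 with trametinib and 0.98 ± 0.05 with vemurafenib (edgeR adjusted p = 1.2e-22). CHAC1, an enzyme that degrades glutathione, averaged 1.53 ± 0.118 CPM under trametinib and 1.69 ± 0.167 CPM under vemurafenib, against 2.43 ± 0.162 CPM in DMSO, and was called lower with each drug.

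Among the enzymes, none rose. MTHFD2, the mitochondrial folate dehydrogenase, had 30.4, 31.5 and 30.3 CPM under trametinib and 34.1, 32.3 and 33.4 CPM under vemurafenib, against 149, 144 and 148 CPM in DMSO. The drug-treated libraries lay far below those in DMSO, with log2 fold changes of -2.26 ± 0.04 (edgeR adjusted p = 1.1e-43) and -2.15 ± 0.04 (edgeR adjusted p = 8.6e-43). PHGDH and PSAT1, which carry out the first steps of serine synthesis, fell with log2 fold changes of -1.45 ± 0.04 and -1.10 ± 0.03 with trametinib, and of -1.19 ± 0.04 and -1.04 ± 0.03 with vemurafenib. PYCR1, which makes proline, and ALDH1L2, a mitochondrial folate enzyme, stood at -1.42 ± 0.05 and -1.33 ± 0.05 on the same scale with trametinib. SHMT2 and ALDH18A1 fell less than 2-fold. PSPH, the last enzyme of serine synthesis, was not called, at -0.02 ± 0.04 with trametinib and -0.02 ± 0.04 with vemurafenib, nor was ASNS.

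The amino acid transporters did not move as one. SLC7A1, the carrier of arginine and lysine, had 50.6, 50.4 and 55.2 CPM under trametinib and 48.4, 50.5 and 47.8 CPM under vemurafenib, against 243, 255 and 243 CPM in DMSO. The groups did not overlap, and the log2 fold changes were -2.25 ± 0.03 (edgeR adjusted p = 1.4e-45) and -2.34 ± 0.03 (edgeR adjusted p = 5e-46). SLC1A5, which carries glutamine, had 45.3, 43.2 and 45.7 CPM under trametinib and 59.8, 59.7 and 62.4 CPM under vemurafenib, against 181, 181 and 184 CPM in DMSO, with log2 fold changes of -2.02 ± 0.04 (edgeR adjusted p = 8.5e-42) and -1.58 ± 0.03. SLC7A11, the cystine carrier, changed by -1.65 ± 0.05 with trametinib and -1.97 ± 0.05 with vemurafenib (edgeR adjusted p = 4.8e-35). SLC7A5 and its heavy chain SLC3A2 stood apart: they rose under trametinib, by 0.66 ± 0.03 and 0.49 ± 0.03, and were not called under vemurafenib, at 0.07 ± 0.03 (edgeR adjusted p = 0.076) and 0.05 ± 0.03 (edgeR adjusted p = 0.14).

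**Figure D2:**
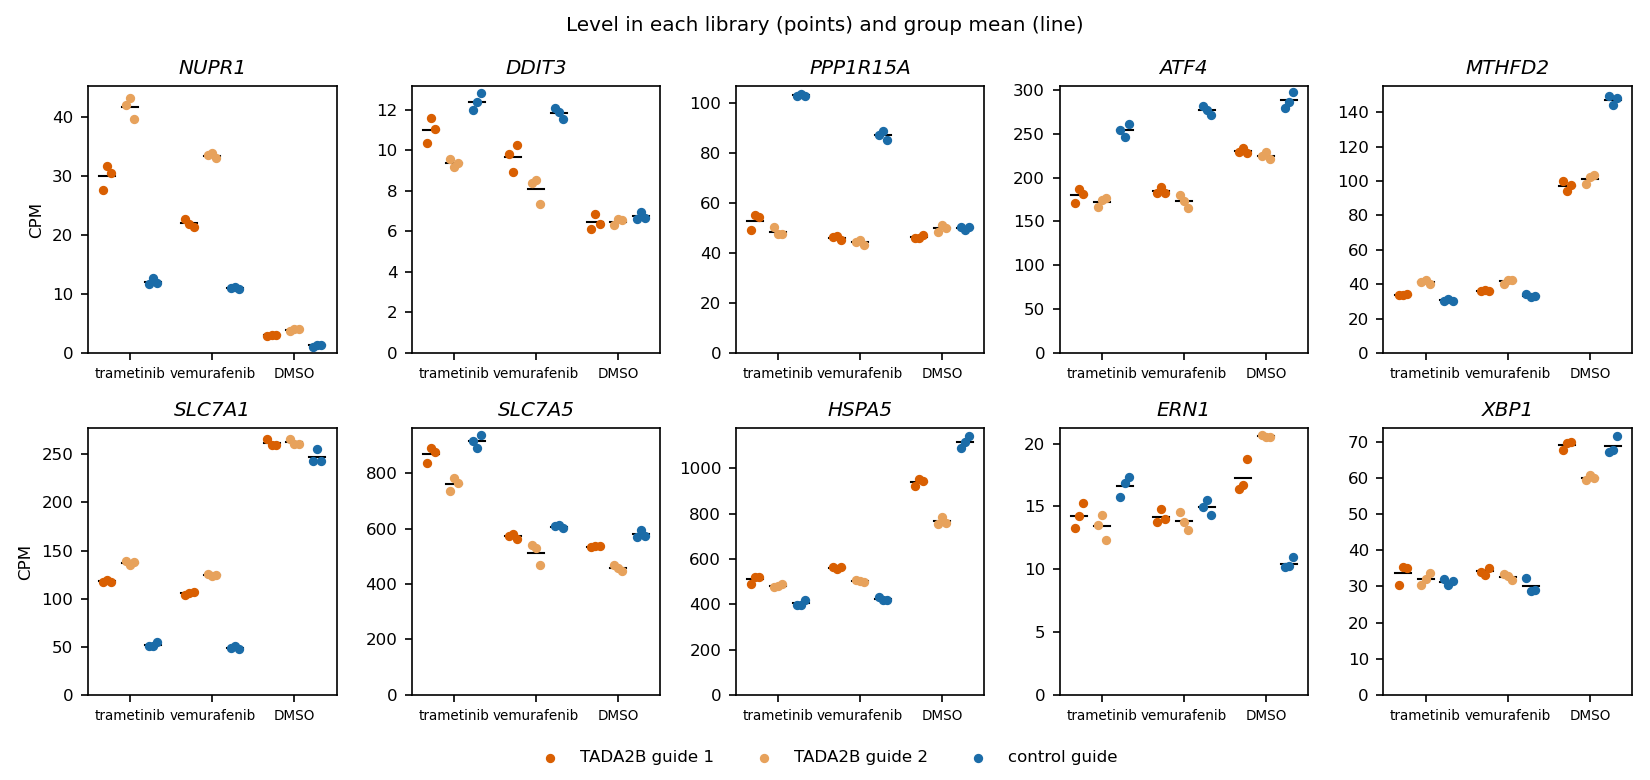
CPM of 10 genes in every library (points) with the group mean (line), by treatment and by cells (dark orange, TADA2B guide 1; light orange, TADA2B guide 2; blue, control guide). PPP1R15A stands near 100 CPM in control cells under trametinib and near 50 CPM in knockout cells under either drug, and SLC7A1 is near 50 CPM in drug-treated control cells and above 100 CPM in drug-treated knockout cells.

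The ER members were led by chaperones that fell. HSPA5 had 397, 397 and 419 CPM under trametinib and 431, 419.6 and 420.5 CPM under vemurafenib, against 1090.1, 1114 and 1140.1 CPM in DMSO. Every drug-treated library lay below the lowest DMSO library, and the log2 fold changes were -1.46 ± 0.03 (edgeR adjusted p = 3.4e-40) and -1.40 ± 0.03 (edgeR adjusted p = 2.7e-39). Falls of at least 2-fold with both drugs were seen for 7 of the 12 chaperones and folding enzymes, and the widest with trametinib was SDF2L1, a partner of BiP, at -1.60 ± 0.08. The disulfide isomerases PDIA4 and PDIA6 changed by -1.42 ± 0.03 and -1.45 ± 0.03 with trametinib. XBP1 was lower as well, with log2 fold changes of -1.14 ± 0.05 (edgeR adjusted p = 1.5e-26) and -1.19 ± 0.05 (edgeR adjusted p = 2.6e-27). The J-domain co-chaperones DNAJC3 and DNAJB9 went against the rest and rose, DNAJC3 by 0.55 ± 0.03 and 0.42 ± 0.03 and DNAJB9 by 0.33 ± 0.06 and 0.20 ± 0.06. Of the sensors, ERN1 rose by 0.67 ± 0.06 (edgeR adjusted p = 4.5e-13) and 0.51 ± 0.06 and EIF2AK3 by 0.20 ± 0.06 and 0.17 ± 0.06. ATF6 changed by 0.09 ± 0.03 with trametinib, which was called, and by 0.02 ± 0.03 with vemurafenib, which was not. In ER-associated degradation, EDEM1 and HERPUD1 were called lower and SEL1L higher with each drug, all by less than 1.5-fold. The HERPUD1 call with vemurafenib (-0.08 ± 0.04, edgeR adjusted p = 0.045) was lost without the low-count filter and on leaving out certain single libraries.

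Promoters were read for the known elements of these pathways, and the sequences of members that fell or moved with the knockout are shown as examples. Of the 45 members, 39 had an entry among 35116 RefSeq promoters of build GRCh38.p14, each of 250 bases before and 50 bases after the start. The other 6, NUPR1, PSPH, SHMT2, ALDH1L2, PYCR1 and SLC7A11, are named only. Motifs were searched on both strands. The ER stress element ERSE, CCAAT and CCACG with 9 bases between them, was in 6 of the 39 promoters (15.4%), those of CANX, HSPA5, HSP90B1, CALR, XBP1 and CRELD2, and in 0.0769% of all promoters. ERSE-II, ATTGG and CCACG with 1 base between them, was in 3 (7.69%), those of HYOU1, HERPUD1 and SDF2L1, and in 0.0541% of all. Each ERSE holds a CCAAT box, and ERSE-II holds its reverse complement; CCAAT alone was in 69.2% of the members and in 34.6% of all promoters. The C/EBP-ATF element, TGATGNAA, was in 5 members (12.8%), ASNS, SLC3A2, SLC7A1, CHAC1 and HERPUD1, and in 3.62% of all. The capitals below mark ERSE in HSPA5 and HSP90B1, which holds it 2 times, ERSE-II in HERPUD1, and the C/EBP-ATF element, read on the opposite strand, in CHAC1. The second ERSE of HSP90B1 is also read on the opposite strand. The lines give the RefSeq promoters at chr9:125241294-125241593, minus strand; chr12:103930160-103930459, plus strand; chr16:56931892-56932191, plus strand; and chr15:40953221-40953520, plus strand.
HSPA5: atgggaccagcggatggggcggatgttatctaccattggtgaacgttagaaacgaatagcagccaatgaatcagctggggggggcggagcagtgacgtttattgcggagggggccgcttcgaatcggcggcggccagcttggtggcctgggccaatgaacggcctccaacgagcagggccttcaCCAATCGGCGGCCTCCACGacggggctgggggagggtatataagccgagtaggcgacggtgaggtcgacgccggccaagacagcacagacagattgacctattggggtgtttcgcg
HSP90B1: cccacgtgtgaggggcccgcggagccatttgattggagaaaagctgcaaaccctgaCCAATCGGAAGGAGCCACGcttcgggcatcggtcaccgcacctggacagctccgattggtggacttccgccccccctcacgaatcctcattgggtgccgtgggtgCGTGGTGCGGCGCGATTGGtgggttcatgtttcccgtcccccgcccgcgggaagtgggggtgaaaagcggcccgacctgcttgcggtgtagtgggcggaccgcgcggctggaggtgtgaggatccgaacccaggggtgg
HERPUD1: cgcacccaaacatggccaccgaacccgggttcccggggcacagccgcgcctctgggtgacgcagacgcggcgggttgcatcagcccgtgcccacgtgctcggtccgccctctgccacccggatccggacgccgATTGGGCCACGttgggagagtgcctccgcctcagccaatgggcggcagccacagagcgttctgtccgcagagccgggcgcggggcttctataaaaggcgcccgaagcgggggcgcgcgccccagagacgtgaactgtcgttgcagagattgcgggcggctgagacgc
CHAC1: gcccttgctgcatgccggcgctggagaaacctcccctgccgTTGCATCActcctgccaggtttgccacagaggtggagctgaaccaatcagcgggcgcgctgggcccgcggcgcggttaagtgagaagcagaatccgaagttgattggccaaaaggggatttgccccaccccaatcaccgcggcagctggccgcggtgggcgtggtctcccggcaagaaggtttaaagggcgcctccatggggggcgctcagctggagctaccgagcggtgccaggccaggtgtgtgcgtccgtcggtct

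Members with and without these elements fell under the drugs. HSPA5, HSP90B1, CALR and XBP1, with an ERSE, fell at least 2-fold under both drugs in control cells, CANX and CRELD2, with the same element, fell less, and MANF, PDIA4 and PDIA6, in whose windows neither element was found, had log2 fold changes of -1.47, -1.42 and -1.45 with trametinib. The elements are those known for these pathways, and the members were listed as genes of the same pathways. The shares among members beside those among all promoters are therefore no test. A match is a description of the letters and says nothing about binding.

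The drugs were then set against each other in the same cells. In control cells 16 members were higher and 7 lower with vemurafenib than with trametinib, where 16.3% of all genes were called, 8.78% higher and 7.56% lower. Between the drugs, 0 members were higher and 0 lower by at least 2-fold, and 0.758% and 0.679% of all genes were; the counts at 1.5-fold were 0 and 1, beside 1.77% and 1.52%. The one difference past 1.5-fold was that of SLC7A5. The transporters held the widest differences. SLC7A5 had 608, 611 and 603 CPM under vemurafenib, against 918, 890.0 and 939 CPM under trametinib, a log2 difference of -0.59 ± 0.03 (edgeR adjusted p = 2.1e-19). For SLC3A2, with which it pairs, the difference was -0.44 ± 0.03 (edgeR adjusted p = 1.3e-16), and for SLC7A11, which pairs with the same heavy chain, -0.32 ± 0.05. SLC38A2, a sodium-coupled carrier of small neutral amino acids, had 485, 453 and 488 CPM under vemurafenib, against 335, 329 and 317 CPM under trametinib, a log2 difference of 0.54 ± 0.03 (edgeR adjusted p = 9.3e-20). SLC1A5 and SLC1A4, carriers of glutamine, alanine and serine, were also higher with vemurafenib, by 0.44 ± 0.04 and 0.42 ± 0.04. All 7 transporters were called different between the drugs, 3 higher and 4 lower with vemurafenib. The SLC7A1 and EDEM1 calls were lost without the low-count filter, with the replicate as a block, and on leaving out certain single libraries. Those of CALR, HSP90B1 and MTHFD2 were lost without the filter and on leaving out certain single libraries. Those of SDF2L1, SHMT2 and TRIB3 were lost only on leaving out certain single libraries. With 1 library left out, 11 to 17 members were higher and 5 to 6 lower with vemurafenib. The sensor genes gave no call among 4. DDIT3 (-0.07 ± 0.07, edgeR adjusted p = 0.6), XBP1 (-0.06 ± 0.05, edgeR adjusted p = 0.5) and HSPA5 (0.07 ± 0.03, edgeR adjusted p = 0.093) were not called, though HSPA5 was called without the third control library in trametinib (0.09, edgeR adjusted p = 0.024), and ATF4 was higher by 0.13 ± 0.03 (edgeR adjusted p = 0.0032).

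In knockout cells 11 members were higher and 9 lower with vemurafenib than with trametinib, where 19.2% of all genes were called, 10.9% higher and 8.29% lower. Between the drugs in these cells, 0 members were higher and 0 lower by at least 2-fold, and 0.937% and 0.500% of all genes were; the counts at 1.5-fold were 0 and 0, beside 1.80% and 1.38%. SLC7A5 had 575, 579 and 564 CPM with guide 1 and 541, 529 and 470.5 CPM with guide 2 under vemurafenib, against 836, 892 and 875 and 735, 784 and 764 CPM under trametinib. The log2 difference was -0.58 ± 0.02 (edgeR adjusted p = 4.1e-25), and that of SLC3A2 was -0.46 ± 0.02. NUPR1 was lower with vemurafenib, at -0.38 ± 0.04 (edgeR adjusted p = 1.4e-11), as was DDIT3, at -0.20 ± 0.05 (edgeR adjusted p = 0.0016). The DDIT3 difference was not called with guide 1 alone (-0.188, edgeR adjusted p = 0.0556). PSAT1, TRIB3 and SDF2L1 were higher by 0.26 ± 0.02, 0.19 ± 0.03 and 0.18 ± 0.06, and the SDF2L1 difference was not called with either guide alone, nor without the first or the third guide 1 library or the first guide 2 library in trametinib, or the third guide 1 or second guide 2 library in vemurafenib (0.15 to 0.16). The differences of SLC38A2 and SLC1A5, wide in control cells, were 0.09 ± 0.02 and 0.15 ± 0.02 in knockout cells, and that of SLC38A2 was not called with guide 2 alone. HSPA5 was higher by 0.10 ± 0.02, but was not called with guide 2 alone (0.063, edgeR adjusted p = 0.16). ATF4 (0.02 ± 0.02, edgeR adjusted p = 0.62) and XBP1 (0.02 ± 0.03, edgeR adjusted p = 0.72) were not called.

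The loss of TADA2B alone also split the list. In DMSO 15 members were higher and 27 lower in knockout cells, taken as the mean of both guides, where 57.9% of all genes were called, 29.3% higher and 28.6% lower. NUPR1, ATF5, CHAC1 and ERN1 were higher, PHGDH, PSAT1 and most chaperones lower. In DMSO, 2 members were higher and 0 lower by at least 2-fold, and 9.04% and 3.57% of all genes were; the counts at 1.5-fold were 4 and 3, beside 14.3% and 8.27%. The 45 genes took 0.871% of all counts with guide 1 and 0.802% with guide 2, against 0.922% in control cells. The median log2 fold change was -0.18, against 0.00 over all genes tested. With each guide on its own, 13 members were called higher (23.4% of all genes were) and 21 lower (22.0% were), and 0 were called in opposite directions.

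NUPR1 had 2.83, 3.00 and 3.12 CPM with guide 1 and 3.64, 4.05 and 4.07 CPM with guide 2, against 1.08, 1.43 and 1.28 CPM in control cells, a log2 fold change of 1.43 ± 0.09 (edgeR adjusted p = 6.6e-19). ATF5 had 29.2, 30.0 and 29.5 CPM and 34.5, 35 and 33.9 CPM with guides 1 and 2, against 15.3, 15.7 and 15.3 CPM, a log2 fold change of 1.05 ± 0.05 (edgeR adjusted p = 4.9e-25). For both genes the knockout libraries lay above all control libraries, and guide 2 lay above guide 1. Part of the exons of ATF5, 21.9%, overlaps NUP62 on the other strand, as do 29.7% of MTHFD2 with SLC4A5 and 29.7% of PDIA6 with ATP6V1C2, and the strand setting of the counting is not given in the sources used here. CHAC1 averaged 4.25 ± 0.0733 and 4.96 ± 0.207 CPM with guides 1 and 2, against 2.43 ± 0.162 CPM in control cells, and rose by 0.91 ± 0.10 (edgeR adjusted p = 6.9e-11). ERN1 averaged 17.3 ± 1.29 and 20.6 ± 0.0960 CPM, against 10.4 ± 0.432 CPM, and rose by 0.85 ± 0.06 (edgeR adjusted p = 4.8e-18). All 3 members of ER-associated degradation were higher, EDEM1 by 0.42 ± 0.03, but the SEL1L value of 0.09 ± 0.03 rested on guide 1 (0.18 ± 0.03), was -0.01 with guide 2 alone and lost its call without the second control library (0.08).

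ATF4 itself was lower. It had 229.6, 233 and 228 CPM with guide 1 and 225, 229 and 222 CPM with guide 2, against 279.5, 286 and 298 CPM in control cells, a log2 fold change of -0.34 ± 0.03 (edgeR adjusted p = 4e-15). Of the 9 enzymes 8 were lower, and PSAT1, the serine aminotransferase, moved most. One of the 8, ASNS (-0.56 ± 0.25, edgeR adjusted p = 0.0496), lost its call with either guide alone, without the low-count filter, with the replicate block and without any 1 of 6 libraries (the first or the third control, the first or the second of either guide). PSAT1 had 124, 119 and 118 CPM and 112, 117 and 114 CPM with guides 1 and 2, against 217, 212 and 226 CPM, a log2 fold change of -0.89 ± 0.03 (edgeR adjusted p = 4.5e-31). PHGDH averaged 115 ± 0.416 and 110.3 ± 3.23 CPM, against 193 ± 4.33 CPM in control cells, at a log2 fold change of -0.78 ± 0.03 (edgeR adjusted p = 3.5e-27). SLC1A4 averaged 27.7 ± 0.553 and 21.5 ± 0.742 CPM, against 45 ± 1.67 CPM, at -0.88 ± 0.04 (edgeR adjusted p = 3.8e-25). DDIT3 was not called (-0.06 ± 0.06, edgeR adjusted p = 0.44), nor was PPP1R15A (-0.06 ± 0.03, edgeR adjusted p = 0.14). PSPH, alone among the enzymes, was higher, by 0.19 ± 0.04.

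The chaperones were lower in knockout cells at rest in 10 of 12 cases, and 8 were called lower with each guide on its own. HSPA5 had 923, 952 and 942 CPM with guide 1 and 752, 785 and 760.2 CPM with guide 2, against 1090.1, 1114 and 1140.1 CPM in control cells. The log2 fold change was -0.39 ± 0.02 (edgeR adjusted p = 8.1e-20), with the 3 sets of libraries apart. PDIA6 and HSP90B1 were the lowest, at -0.56 ± 0.03 and -0.51 ± 0.02, and the 2 higher ones were again DNAJB9 (0.55 ± 0.05) and DNAJC3 (0.22 ± 0.03). XBP1 was called lower at -0.09 ± 0.04 (edgeR adjusted p = 0.036), but its difference was 0.007 with guide 1 alone and -0.20 ± 0.05 with guide 2 alone. The call was also lost without the second or the third control library, the first guide 1 library, or the first or the third guide 2 library (-0.06 to -0.11). Without the low-count filter it was lost too (-0.086, edgeR adjusted p = 0.0564).

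Under the drugs the knockout effect turned round for many members. In trametinib 23 members were higher and 15 lower in knockout cells, where 55.9% of all genes were called, 27.1% higher and 28.8% lower. In trametinib, 2 members were higher and 2 lower by at least 2-fold, and 8.42% and 4.76% of all genes were; the counts at 1.5-fold were 6 and 4, beside 12.8% and 8.77%. In vemurafenib 24 were higher and 15 lower, where 55.6% of all genes were called, 27.3% higher and 28.3% lower. In vemurafenib, 2 members were higher and 0 lower by at least 2-fold, and 8.47% and 4.80% of all genes were; the counts at 1.5-fold were 4 and 5, beside 12.7% and 9.06%. With each guide on its own, 18 members were called higher (21.1% of all genes were) and 14 lower (21.8%) in trametinib, and 22 higher (21.7%) and 14 lower (21.6%) in vemurafenib. In trametinib 14 members that were lower in knockout cells in DMSO were higher in knockout cells, among them 9 of the 12 chaperones. In vemurafenib 13 were, among them 8 chaperones. Of all genes tested, 4.17% and 3.82% turned in this way. These counts rest on the mean of both guides, and some calls were lost with a single guide. In DMSO CRELD2 (-0.08) and HYOU1 (-0.04) were not called with guide 1 alone, nor SLC1A5 (-0.04) with guide 2 alone. MANF in trametinib (0.06) and PDIA6 in vemurafenib (0.06) were not called with guide 2 alone. The SDF2L1 value in trametinib, 0.18 ± 0.08, was not called with guide 2 alone (0.12), without the first or the second control library, or without the second library of either guide (0.14 to 0.18). HSPA5 had 489.9, 520.4 and 519.8 CPM with guide 1 and 474, 481 and 488 CPM with guide 2 under trametinib, against 397, 397 and 419 CPM in control cells, a log2 fold change of 0.29 ± 0.02 (edgeR adjusted p = 9.3e-15). Under vemurafenib it averaged 561 ± 6.27 and 502 ± 5.33 CPM, against 424 ± 6.26 CPM, a log2 fold change of 0.33 ± 0.02 (edgeR adjusted p = 2.9e-16). XBP1 was not called in trametinib (0.07 ± 0.04, edgeR adjusted p = 0.17), except without the first guide 1 library (0.10, edgeR adjusted p = 0.021), and was higher in vemurafenib (0.15 ± 0.04, edgeR adjusted p = 0.0019). CANX was lower in knockout cells in each treatment, at -0.17 ± 0.03 in trametinib, -0.17 ± 0.03 in vemurafenib and -0.31 ± 0.02 in DMSO.

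**Figure D3:**
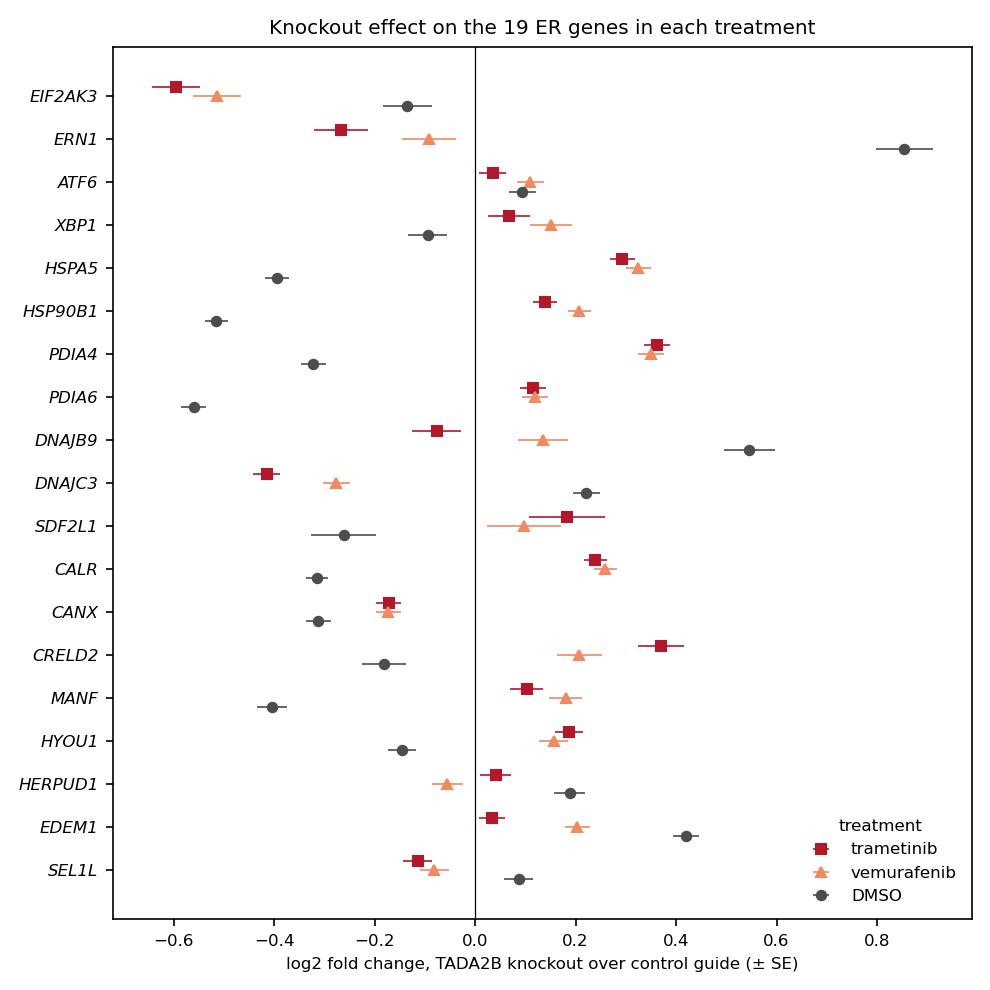
Log2 fold change ± SE of the 19 ER genes in TADA2B knockout cells (mean of both guides) over control cells, in trametinib (squares), vemurafenib (triangles) and DMSO (circles). Most chaperones from HSPA5 to HYOU1 lie left of 0 in DMSO and right of 0 under both drugs, while ERN1 and DNAJC3 run the opposite way and CANX is left of 0 throughout.

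SLC7A1 showed the widest knockout effect under the drugs after NUPR1. It had 118, 119.6 and 118 CPM with guide 1 and 139, 135 and 138 CPM with guide 2 under trametinib, against 50.6, 50.4 and 55.2 CPM in control cells, and 104, 106 and 107 CPM with guide 1 and 125, 123 and 124 CPM with guide 2 under vemurafenib, against 48.4, 50.5 and 47.8 CPM. The log2 fold changes were 1.29 ± 0.03 (edgeR adjusted p = 4.8e-37) and 1.23 ± 0.03 (edgeR adjusted p = 4.8e-36), with no overlap. In DMSO the same gene differed by only 0.09 ± 0.03. NUPR1 had 27.6, 31.8 and 30.5 CPM with guide 1 and 42.2, 43.2 and 39.8 CPM with guide 2 under trametinib, against 11.7, 12.8 and 11.9 CPM in control cells, higher by 1.55 ± 0.05 (edgeR adjusted p = 6.4e-30), and in vemurafenib it was higher by 1.30 ± 0.05. CHAC1 was higher in knockout cells by 0.99 ± 0.11 in trametinib and 0.93 ± 0.11 in vemurafenib, as in DMSO. The metabolic genes MTHFD2, ALDH1L2, PYCR1 and SLC1A5 were higher in knockout cells under both drugs, ALDH1L2 by 0.75 ± 0.05 in trametinib.

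Other members were lower in the drug-treated knockout cells. PPP1R15A had 49.0, 55.2 and 54.3 CPM with guide 1 and 50.4, 47.5 and 47.7 CPM with guide 2 under trametinib, against 103, 104 and 103 CPM in control cells, a log2 fold change of -1.02 ± 0.03 (edgeR adjusted p = 1.4e-31). Under vemurafenib its log2 fold change was -0.95 ± 0.03 (edgeR adjusted p = 6.6e-30), and the 6 knockout libraries in that drug stood at 45 to 46.7 CPM with guide 1 and 43.0 to 45.3 CPM with guide 2, against 45.8 to 47.1 and 48.2 to 51.3 CPM in DMSO. PSAT1 had 50.5, 50.5 and 52.7 CPM and 44.5, 43.5 and 41.5 CPM with guides 1 and 2 under trametinib, against 103, 101 and 102 CPM, with a log2 fold change of -1.11 ± 0.03 (edgeR adjusted p = 1.6e-34), and of -0.91 ± 0.03 in vemurafenib. In trametinib and vemurafenib ATF4 was lower, at -0.53 ± 0.03 (edgeR adjusted p = 3.8e-22) and -0.63 ± 0.03 (edgeR adjusted p = 3e-25), as was DDIT3, at -0.29 ± 0.06 (edgeR adjusted p = 2.9e-05) and -0.42 ± 0.06 (edgeR adjusted p = 2.3e-08). SLC7A11 stood at -0.82 ± 0.04 in trametinib (edgeR adjusted p = 2.2e-21) and SLC1A4 at -0.72 ± 0.04 in vemurafenib (edgeR adjusted p = 5.5e-22).

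The drug responses were also read within knockout cells, where NUPR1, DDIT3 and SESN2 again rose and most enzymes, chaperones and SLC7A11 fell. In knockout cells 8 members were called higher and 33 lower with trametinib, where 71.4% of all genes were called, 37.2% higher and 34.3% lower. With trametinib, 1 member was higher and 7 lower by at least 2-fold, and 13.2% and 8.62% of all genes were; the counts at 1.5-fold were 4 and 18, beside 21.4% and 15.7%. With vemurafenib 6 were higher and 34 lower, where 69.1% of all genes were called, 36.0% higher and 33.1% lower. With vemurafenib, 1 member was higher and 5 lower by at least 2-fold, and 11.6% and 7.42% of all genes were; the counts at 1.5-fold were 2 and 16, beside 19.5% and 14.4%. Of the 8 rises with trametinib, PSPH and SLC1A4 were not called with guide 1 alone, nor PPP1R15A with guide 2 alone. PSPH also lost its call without the low-count filter, and with 1 library left out 6 to 8 members were higher. The median log2 fold change of the members was -0.45 with trametinib and -0.42 with vemurafenib. NUPR1 rose by 3.37 ± 0.05 (edgeR adjusted p = 3.5e-46) and 2.99 ± 0.05 (edgeR adjusted p = 1.2e-43), DDIT3 by 0.65 ± 0.05 and 0.45 ± 0.05, and SESN2 by 0.70 ± 0.03 and 0.67 ± 0.03. SLC7A11 fell most, to 16.7 ± 0.770 and 14.9 ± 0.780 CPM with guides 1 and 2 under trametinib, against 78.6 ± 2.75 and 53.4 ± 1.27 CPM in DMSO, a log2 fold change of -2.04 ± 0.04 (edgeR adjusted p = 1.3e-41). MTHFD2 fell as well, at -1.41 ± 0.02 and -1.36 ± 0.02, and HSPA5, at -0.78 ± 0.02 (edgeR adjusted p = 2.6e-35) and -0.68 ± 0.02 (edgeR adjusted p = 9.7e-33). None of the 12 chaperones rose, and CRELD2 (-0.07 ± 0.04 with trametinib, -0.04 ± 0.04 with vemurafenib) was not called. ATF4 was lower in both drugs, at -0.37 ± 0.02 and -0.35 ± 0.02, and so was XBP1, at -0.97 ± 0.03 and -0.95 ± 0.03. Both drugs are set against the same DMSO libraries, here and in control cells.

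The difference between the responses was tested as an interaction, the drug's log2 fold change in knockout cells minus that in control cells. For trametinib it was positive and called in 21 members and negative and called in 14, where 43.9% of all genes were called, 20.8% higher and 23.2% lower. For trametinib, 2 members were higher and 1 lower by at least 2-fold, and 3.92% and 5.06% of all genes were; the counts at 1.5-fold were 11 and 5, beside 7.63% and 9.20%. For vemurafenib these counts were 21 and 15, where 42.5% of all genes were called, 20.0% higher and 22.4% lower. For vemurafenib, 1 member was higher and 0 lower by at least 2-fold, and 3.31% and 4.52% of all genes were; the counts at 1.5-fold were 10 and 3, beside 6.97% and 8.50%. Positive interactions outnumbered negative ones among the genes that the drugs lowered: 19 members fell with trametinib in both kinds of cells and had a positive interaction, as did 18 with vemurafenib, which means a smaller fall in knockout cells; of all genes tested, 12.2% and 12.3% met the same rule. A larger fall in knockout cells, with a negative interaction, was found for 5 members with trametinib, ATF4, PSAT1, SLC7A11, HERPUD1 and EDEM1, and for 5 with vemurafenib, CEBPG, SHMT2, SLC7A11, HERPUD1 and EDEM1, and for 2.62% and 2.13% of all genes. SLC7A11 had -0.39 ± 0.06 (edgeR adjusted p = 4.2e-07) and -0.24 ± 0.06 (edgeR adjusted p = 0.0011), and the vemurafenib value was not called with guide 2 alone. With vemurafenib the interactions of CEBPG and SHMT2 were not called with guide 1 alone. That of CEBPG was also lost with the DESeq2 size factors and on leaving out certain single libraries. SLC7A1 had the widest, at 1.21 ± 0.04 (edgeR adjusted p = 3.4e-30) and 1.14 ± 0.04 (edgeR adjusted p = 4.9e-29). ALDH1L2 followed at 1.15 ± 0.06 (edgeR adjusted p = 1.7e-20) and 1.00 ± 0.06 (edgeR adjusted p = 5.2e-18), then PHGDH at 0.97 ± 0.04 with trametinib and MTHFD2 at 0.79 ± 0.04 with vemurafenib. The falls of ALDH1L2 and SLC38A2 in knockout cells with trametinib, counted among the 19 above, were not called with guide 2 alone. The chaperones were positive in 10 of 12 cases with each drug, and HSPA5 stood at 0.69 ± 0.03 (edgeR adjusted p = 1.8e-22) and 0.72 ± 0.03 (edgeR adjusted p = 4e-23). The interaction of CANX, counted among these 10, was not called with guide 1 alone for either drug. XBP1 had 0.16 ± 0.06 (edgeR adjusted p = 0.017), not called with guide 1 alone (0.09) or without the third control library in DMSO or the second in trametinib (0.13 and 0.14), and 0.24 ± 0.06 (edgeR adjusted p = 0.00039).

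The other negative interactions included genes that the drugs raised in control cells. With trametinib 5 members rose in control cells and fell in knockout cells, namely ATF5, EIF2AK3, ERN1, DNAJB9 and DNAJC3. With vemurafenib these 5 and PPP1R15A did, and 2.42% and 2.10% of all genes tested did so. The fall of DNAJC3 in knockout cells with trametinib was not called with guide 2 alone. The fall of PPP1R15A with vemurafenib was not called with guide 1 alone. ERN1 had 13.3, 14.3 and 15.3 CPM with guide 1 and 13.5, 14.3 and 12.4 CPM with guide 2 in trametinib, against 16.4, 16.7 and 18.8 CPM and 20.7, 20.6 and 20.5 CPM in DMSO, while control cells had 15.7, 16.9 and 17.3 CPM in trametinib, against 10.1, 10.2 and 10.9 CPM in DMSO. Its interaction was -1.12 ± 0.08 (edgeR adjusted p = 4.5e-17) with trametinib and -0.95 ± 0.08 (edgeR adjusted p = 2.1e-14) with vemurafenib, and the guide 2 libraries in DMSO lay above those of control cells on either drug. For PPP1R15A the interaction was -0.97 ± 0.05 (edgeR adjusted p = 4e-23) and -0.89 ± 0.05 (edgeR adjusted p = 1.4e-21), and for ATF5 -0.84 ± 0.06 (edgeR adjusted p = 4.8e-16) and -0.71 ± 0.06 (edgeR adjusted p = 1.8e-13). ATF4 had -0.19 ± 0.04 (edgeR adjusted p = 7e-05) and -0.29 ± 0.04 (edgeR adjusted p = 1.7e-08). The interaction of DDIT3 was -0.23 ± 0.09 with trametinib (edgeR adjusted p = 0.03) and -0.36 ± 0.09 with vemurafenib (edgeR adjusted p = 0.00062). With guide 1 alone neither was called (-0.10, edgeR adjusted p = 0.46, and -0.225, edgeR adjusted p = 0.0774). The trametinib call was also lost with the DESeq2 size factors (-0.205, edgeR adjusted p = 0.0502) and without the low-count filter (-0.237, edgeR adjusted p = 0.0506). It was lost without 1 of 5 libraries as well (-0.20 to -0.22). These were the first or the third control library or the second guide 1 library in DMSO, and the third control or first guide 1 library in trametinib. NUPR1, the widest rise in the list, had no called interaction, at 0.11 ± 0.11 (edgeR adjusted p = 0.45) and -0.14 ± 0.11 (edgeR adjusted p = 0.33). Interactions share the DMSO libraries with the knockout effect at rest, so the values side by side are not independent.

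**Figure D4:**
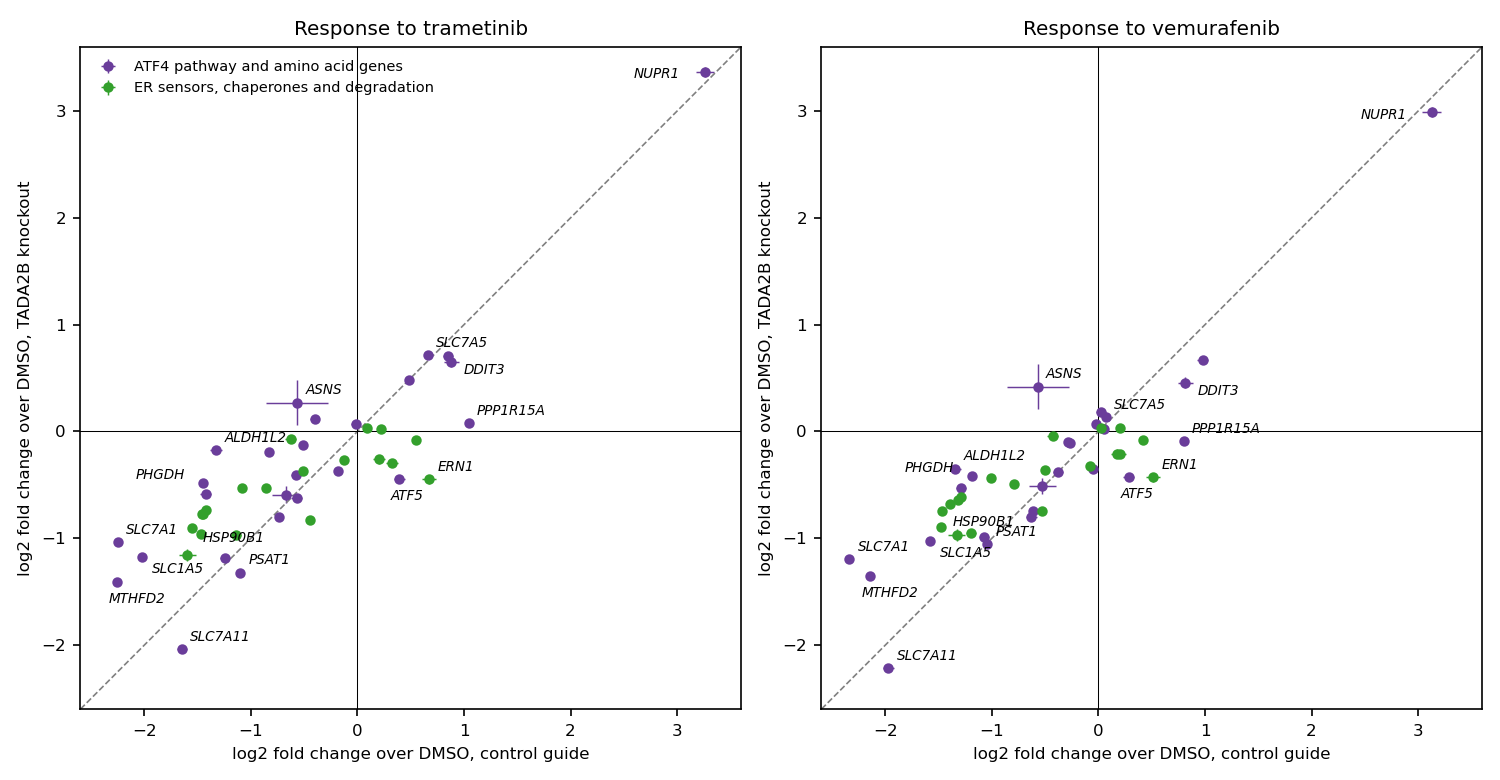
Scatter of log2 fold change over DMSO in TADA2B knockout cells (vertical) against control cells (horizontal) for the 45 genes, with SE bars, for trametinib and vemurafenib; green marks ER genes, violet the others, and the dashed line equal responses. Most genes left of 0 lie above the line, NUPR1 lies near it, and ERN1, ATF5, PPP1R15A and, by less, SLC7A11 lie below it; ASNS has the widest bars.

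No member was called in opposite directions with the 2 guides against control cells in any treatment. Some differed in sign where a single guide gave a call. With guides 1 and 2, SEL1L was at 0.18 and -0.01 and XBP1 at 0.007 and -0.20 in DMSO. HERPUD1 was at 0.02 and -0.13 in vemurafenib. In DMSO guide 2 was called higher than guide 1 for 4 members and lower for 20, where 11.9% of all genes were called, 4.64% higher and 7.29% lower. In trametinib it was higher for 9 and lower for 12, where 19.7% of all genes were called, 10.8% higher and 8.91% lower. In vemurafenib it was higher for 8 and lower for 21, where 16.0% of all genes were called, 7.12% higher and 8.85% lower. Hardly any of these differences passed 1.5-fold, though some were wide beside the knockout effect itself. In trametinib, 0 members were higher and 0 lower by at least 2-fold, and 0.222% and 0.925% of all genes were; the counts at 1.5-fold were 0 and 0, beside 1.04% and 2.35%. In vemurafenib, 0 members were higher and 0 lower by at least 2-fold, and 0.298% and 0.853% of all genes were; the counts at 1.5-fold were 1 and 0, beside 1.02% and 2.10%. In DMSO, 0 members were higher and 0 lower by at least 2-fold, and 0.321% and 0.508% of all genes were; the counts at 1.5-fold were 0 and 0, beside 0.861% and 1.51%. In DMSO 15 of the 19 ER members were lower with guide 2, and HSPA5 differed by -0.29 ± 0.03 (edgeR adjusted p = 6.6e-12). Against control cells in DMSO, HSPA5 was at -0.25 with guide 1 and -0.54 with guide 2. NUPR1 was higher with guide 2 in each treatment, by 0.48 ± 0.05 in trametinib, 0.61 ± 0.05 in vemurafenib and 0.39 ± 0.08 in DMSO. SLC7A11 differed most in DMSO, at 54.2, 51.9 and 54.1 CPM with guide 2, against 81.5, 76.1 and 78.1 CPM with guide 1 (-0.56 ± 0.05, edgeR adjusted p = 3e-13). Its values against control cells in DMSO were -0.15 with guide 1 and -0.71 with guide 2. ALDH1L2 was higher with guide 2 in trametinib by 0.35 ± 0.05 and in vemurafenib by 0.33 ± 0.05. ATF4 was called in vemurafenib alone, at -0.09 ± 0.03 (edgeR adjusted p = 0.037), and the call was lost without any 1 of the guide 1 libraries or the second or the third guide 2 library (-0.06 to -0.11). DDIT3 was lower with guide 2 in trametinib, at -0.23 ± 0.07 (edgeR adjusted p = 0.0089), and in vemurafenib, at -0.26 ± 0.07 (edgeR adjusted p = 0.0062), calls that were lost without the second guide 1 library in trametinib (-0.19) and without the third guide 1 or the third guide 2 library in vemurafenib (-0.21 and -0.19). Without the second guide 1 library in trametinib, 6 members in place of 12 were lower with guide 2 in that treatment.

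Other genes of the same pathways were read from lists chosen alongside the members. Of the 20 cytosolic aminoacyl-tRNA synthetases, many of them ATF4 targets, 2 were higher and 17 lower with trametinib in control cells, with a median log2 fold change of -0.75, while 36.4% of all genes were higher and 32.5% lower, the shares to set beside all counts for that response below. FARSB, a subunit of the phenylalanine enzyme, changed by -1.98 ± 0.04 (edgeR adjusted p = 8.4e-38). In knockout cells in DMSO 19 of the 20 were lower, where 28.6% of all genes were, with a median of -0.31, and LARS1, the leucine enzyme, was lowest at -0.67 ± 0.02. Their interaction with trametinib was positive in 13 and negative in 1, where 20.8% and 23.2% of all genes were. Of 23 other ATF4 targets tested, 6 were higher and 15 lower with trametinib in control cells, and ATF3, a stress factor that represses and activates by turns, rose by 5.84 ± 0.06 (edgeR adjusted p = 9.3e-51), while its interaction was -2.96 ± 0.08 (edgeR adjusted p = 1.6e-32). DDIT4, an mTORC1 inhibitor, was lower in knockout cells in DMSO, at -1.49 ± 0.03 (edgeR adjusted p = 2.7e-36).

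Of 21 further enzymes of serine, one-carbon, proline and glutamine metabolism tested, 7 were higher and 13 lower with trametinib in control cells, and in trametinib 15 were higher and 3 lower in knockout cells, where 27.1% and 28.8% of all genes were. TYMS, thymidylate synthase, which uses the folate pool and follows the cell cycle, changed by -2.56 ± 0.05 in control cells. The 32 other ER chaperones and oxidoreductases had 9 higher and 21 lower with trametinib in control cells, with a median of -0.30, and PRDX4, an ER peroxiredoxin, changed by -1.25 ± 0.04. Of 28 other genes of ER-associated degradation 9 were higher and 14 lower, with a median of -0.09, and of 24 translocation and secretory XBP1 targets 4 were higher and 17 lower, with a median of -0.26. Among the 20 other genes of eIF2alpha phosphorylation and eIF2B, 6 were higher and 13 lower, with EIF2S2 at -0.98 ± 0.03. Of 11 other sensor and factor genes tested, 4 were higher and 6 lower, and CREB3L1, an ER-anchored factor cleaved like ATF6, was higher in knockout cells in DMSO by 2.29 ± 0.13 (edgeR adjusted p = 3.8e-20).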

How the data were processed

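PolyA RNA of 27 libraries, 3 in each of 9 groups, was sequenced with a stranded mRNA kit. The authors deposited 1 table of raw read counts per gene, whole numbers that were not normalized. The submitters' processing notes name bcl2fastq, HISAT2, HTSeq and the build hg38; tool versions, annotation and strand setting were not given in the sources used here. Each of the 58721 identifiers was found in GENCODE 29, which gave symbols and exon lengths for TPM.

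Counts were fitted in R 4.3.3 with edgeR 4.0.16 (TMM scaling, filterByExpr, quasi-likelihood test, Benjamini-Hochberg adjustment over 25199 genes, 18 residual degrees of freedom), with 1 coefficient for each of the 9 groups. CPM use TMM-scaled totals. A gene was called at an adjusted p under 0.05, and the common biological coefficient of variation was 4.02%. Knockout values are the mean of both guides. Named in full were, per comparison, the 3 largest rises and falls among called members averaging at least 1 log2-CPM, and ATF4, DDIT3, XBP1 and HSPA5; further examples were chosen after their values were seen. The members and lists were chosen with earlier results of these data known. Scripts were tested on simulated data. Alternatives were DESeq2 1.42.0, its size factors, no low-count filter, each guide alone, a replicate block, fold thresholds and leaving out each library. Printed SDs cover the 3 libraries of a group. Printed SEs come from the fit over all 27 libraries, and those of knockout values leave out the difference between guides. SLC1A4 in DMSO, at -0.88 ± 0.04 as the mean of both, was at -0.70 with guide 1 and -1.07 with guide 2.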

Additional observations from a re-analysis of the deposited data

Results flagged for a closer look

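The drug response was called different between knockout and control cells by the interaction term for 21 members upward and 14 downward with trametinib, and for 21 and 15 with vemurafenib. Of these, 11 are given here, the 3 widest in each direction with each drug among members that averaged at least 1 log2-CPM, and ATF4, DDIT3, XBP1 and HSPA5. Values are the log2 fold change in knockout cells minus that in control cells. With trametinib the difference was 1.21 for SLC7A1, 1.15 for ALDH1L2, 0.97 for PHGDH, 0.69 for HSPA5 and 0.16 for XBP1. It was -1.12 for ERN1, -0.97 for PPP1R15A, -0.84 for ATF5, -0.23 for DDIT3 and -0.19 for ATF4. With vemurafenib it was 1.14 for SLC7A1, 1.00 for ALDH1L2, 0.79 for MTHFD2, 0.72 for HSPA5 and 0.24 for XBP1. It was -0.95 for ERN1, -0.89 for PPP1R15A, -0.71 for ATF5, -0.36 for DDIT3 and -0.29 for ATF4. The share of counts on mitochondrial genes also differed between knockout and control cells, and its part in these differences was not tested.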

How the results depend on the processing

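At 3 libraries a group and a small spread between them, most genes pass the test, so the number of members called depends on the size asked for. Asking for at least 2-fold left 2 higher and 17 lower with trametinib and 1 and 17 with vemurafenib in control cells, 1 and 7 with trametinib and 1 and 5 with vemurafenib in knockout cells, 2 and 0 for the knockout in DMSO, 2 and 2 in trametinib and 2 and 0 in vemurafenib. The interactions kept 2 and 1 with trametinib and 1 and 0 with vemurafenib, and the contrasts between drugs and between guides kept 0 and 0. Asking for at least 1.5-fold left 6 higher with trametinib and 4 with vemurafenib in control cells, 4 higher and 18 lower with trametinib and 2 and 16 with vemurafenib in knockout cells, 4 and 3 for the knockout in DMSO, 6 and 4 in trametinib and 4 and 5 in vemurafenib. The interactions kept 11 and 5 with trametinib and 10 and 3 with vemurafenib, vemurafenib against trametinib 0 and 1 in control cells and 0 and 0 in knockout cells, and guide 2 against guide 1 kept 0 and 0 in DMSO, 0 and 0 in trametinib and 1 and 0 in vemurafenib.

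With guide 2 alone, 7 members in place of 11 were higher with vemurafenib than with trametinib in knockout cells. Leaving out 1 library, guide 2 was lower than guide 1 in trametinib for 6 to 15 members, 12 with all libraries. The knockout effect on XBP1 in DMSO changed sign with guide 1 alone, to 0.007 (edgeR adjusted p = 0.91); the cause was not tested. Over 134 results for single genes and 2002 alternative values, 1957 kept direction and side of the threshold, 39 were no longer called, 5 were newly called and 1 changed sign. The DESeq2 size factors moved the median gene by at most 0.0208 on the log2 scale. Deviations of libraries with the same replicate number had a median correlation of 0.000875 over 108 pairs (-0.164 to 0.167), against -0.00208 for other pairs. Of 27 libraries, 12 were closest to their own number. Counting noise may hide a shared part in a correlation over all genes, so it cannot tell whether a number marks a shared culture or batch. With the replicate as a block, 5 members in place of 7 were lower with vemurafenib than trametinib in control cells and 26 in place of 27 were lower in knockout cells in DMSO. ASNS, with few counts and shared exons, limits what can be said of asparagine synthesis.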
